A study of Mus musculus with 12 samples.

Results

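The 39 genes described here are the mouse Hox genes of the Hoxa, Hoxb, Hoxc and Hoxd clusters, taken from the 22276 gene symbols of the expression table by name alone: Hox, a cluster letter and a paralog number. The table holds 1 RNA-seq library for each of 4 organs in 3 conditions, 12 libraries in all, with levels in FPKM, fragments per kilobase of transcript scaled to library depth. The organs were quadriceps (muscle), liver, white fat (WAT, white adipose tissue) and brown fat (BAT) of male C57BL/6J mice aged 17 weeks. The conditions were a normal chow diet with vehicle (NCD-veh), a high-fat diet with vehicle (HFD-veh) and a high-fat diet with narciclasine (HFD-ncls), an alkaloid of Narcissus bulbs. The diets ran from the age of 8 weeks and the vehicle or narciclasine from 10 weeks to the end. Both control groups carried vehicle, and no group was treated on the chow diet. The labels do not give the fat depot of the WAT or the number of mice behind a library. A mean ± SD of an organ is over its 3 libraries and so spans the 3 conditions. In every string of 3 values below, the order is NCD-veh, HFD-veh and HFD-ncls.

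Hox proteins are homeodomain transcription factors that give cells of the embryo their position along the body axis. Within a cluster the genes lie in the order in which they act, with low paralog numbers set for the head end and high numbers for the tail end and the distal limb, and a cell type tends to keep its embryonic set into adult life. Fat depots and their precursors, muscle and fibroblasts are known for carrying such sets. The parenchyma of the liver comes from the anterior gut endoderm.

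The member with the highest mean level differed between the 4 organs. It was Hoxc8 in WAT, Hoxa5 in BAT, Hoxc10 in muscle and Hoxb4 in liver, and the homeoboxes of the first 3 are shown to set the leading genes side by side. Each is the stretch of coding sequence for the 60 residues of the DNA-binding homeodomain, 180 bases long and in 1 exon, with the 18 bases for the core of the recognition helix in capitals. They were read from the GENCODE M1 transcripts of mouse build mm9. Hoxc8 lies at chr15:102823002-102823181 on the plus strand, Hoxa5 at chr6:52152631-52152810 on the minus strand and Hoxc10 at chr15:102801279-102801458 on the plus strand.
Hoxc8: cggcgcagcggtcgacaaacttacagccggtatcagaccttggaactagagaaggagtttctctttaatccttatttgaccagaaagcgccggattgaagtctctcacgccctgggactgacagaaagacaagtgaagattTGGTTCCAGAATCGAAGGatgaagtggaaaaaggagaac
Hoxa5: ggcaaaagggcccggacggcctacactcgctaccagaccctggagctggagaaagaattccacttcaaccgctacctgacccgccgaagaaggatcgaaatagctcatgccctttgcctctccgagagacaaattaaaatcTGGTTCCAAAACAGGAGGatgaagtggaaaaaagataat
Hoxc10: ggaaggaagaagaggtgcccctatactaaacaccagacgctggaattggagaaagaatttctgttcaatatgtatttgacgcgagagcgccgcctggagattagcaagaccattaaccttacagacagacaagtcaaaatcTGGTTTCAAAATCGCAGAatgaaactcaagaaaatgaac
Hoxa5 and Hoxc8 shared 118 of the 180 bases, the most of any pair among the 3. Hoxc10 shared 108 with Hoxc8 and 109 with Hoxa5. Paralogs were closer than these pairs, with 145 shared between Hoxc10 and Hoxa10 and 144 between Hoxc8 and Hoxb8. Hoxa5 shared 151 with Hoxb5 and 138 with Hoxc5. With Hoxb4, the leading gene of liver and not a paralog, Hoxa5 shared 136, close to its count with Hoxc5.

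The clusters also hold genes of the miR-196 family, which is known to repress Hox messages. miR-196a is known for lowering Hoxc8 in white fat progenitors, so its sequence and the matches in the Hoxc8 message are shown for the gene that led in WAT. The mature sequences are from RefSeq, with the seed (bases 2 to 8) in capitals. Copies of the miR-196a gene lie in the Hoxc and Hoxb clusters, where build GRCm38.p6 places the mature arm at chr15:102973365-102973386 and chr11:96265187-96265208, and the miR-196b gene lies in the Hoxa cluster at chr6:52230129-52230150.
miR-196a-5p: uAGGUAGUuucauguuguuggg
miR-196b-5p: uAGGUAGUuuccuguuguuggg
Both have the same seed. The 7 bases that pair with it, ACTACCT on the transcript strand, occurred 14 times in the annotated 3′ UTRs of 9 of the 39 members, and in 6.34% of all genes with an annotated 3′ UTR. Hoxc8 held 3 of them, at chr15:102823405-102823428, chr15:102824162-102824185 and chr15:102824300-102824323 in mm9 on the plus strand, shown in that order with the match in capitals.
Hoxc8 site 1: gacactcacaactctaACTACCTg
Hoxc8 site 2: aataaatctttaacatACTACCTa
Hoxc8 site 3: tccagcgtattttatcACTACCTa
Hoxa7 held 4 matches, and Hoxa4, Hoxa5, Hoxa9, Hoxb1, Hoxb6 and Hoxb7 were among those that held 1. These are matches of letters only, since the table has no level for a mature miRNA.

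The libraries were of similar depth, at about 18600000 to 26200000 fragments by the step between the lowest values, which makes 1 fragment on a transcript of 2000 bases worth 0.0191 to 0.0269 FPKM. Each organ carried its own markers: the 5 adipocyte markers summed to 6008 to 7046 FPKM in WAT, the 5 brown adipocyte markers to 6696 to 7898 in BAT, the 5 fibre markers to 64956 to 68482 in muscle and 4 hepatocyte markers to 27467 to 29053 in liver. Markers of mesothelium, the layer that coats visceral fat, summed to 207, 80.2 and 87.3 in WAT, and 5 of the 8 epididymal epithelium markers were at 0 in all libraries. Some libraries also carried marker RNA of another organ. The fibre markers summed to 1391, 559 and 78.1 FPKM in BAT, and the 5 hepatocyte markers to 423 in the HFD-veh muscle library, beside 16.3 and 7.86 in the other muscle libraries. Alb read 4.79, 25.7 and 94.1 in WAT, and the fibre markers summed to 1.93, 42.7 and 2.95 in liver. In whole tissue, fewer cells of a type and less RNA per cell cannot be told apart.

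Hox expression was strong in WAT and muscle, lower in BAT and near 0 in liver, and its centre moved along the paralog numbers from organ to organ. The 39 members summed to 151 ± 17.1 FPKM in WAT (SD, n = 3 libraries), 53.7 ± 3.59 in BAT, 106 ± 8.67 in muscle and 2.14 ± 0.228 in liver. These are sums of FPKM as deposited, a scale on which the median of all genes was highest in WAT, as given below. The order of WAT and muscle by this sum therefore depends on the scale. The mean paralog number, weighted by FPKM, was 6.44 ± 0.0427 in WAT, 4.88 ± 0.0418 in BAT, 8.91 ± 0.0864 in muscle and 3.90 ± 0.106 in liver. The SDs were far smaller than the steps between organs, and a ratio of genes within a library does not depend on how the library was scaled. The order of the fat depots and muscle held in each cluster on its own for Hoxa, Hoxc and Hoxd, with BAT lowest, WAT next and muscle highest. In Hoxb the means of WAT, at 4.97 ± 0.212, and muscle, at 5.07 ± 0.0678, differed by less than the SD of the WAT libraries. In liver the sum was so low that its weighted mean rested on 12 to 14 members above 0.

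**Figure D1:**
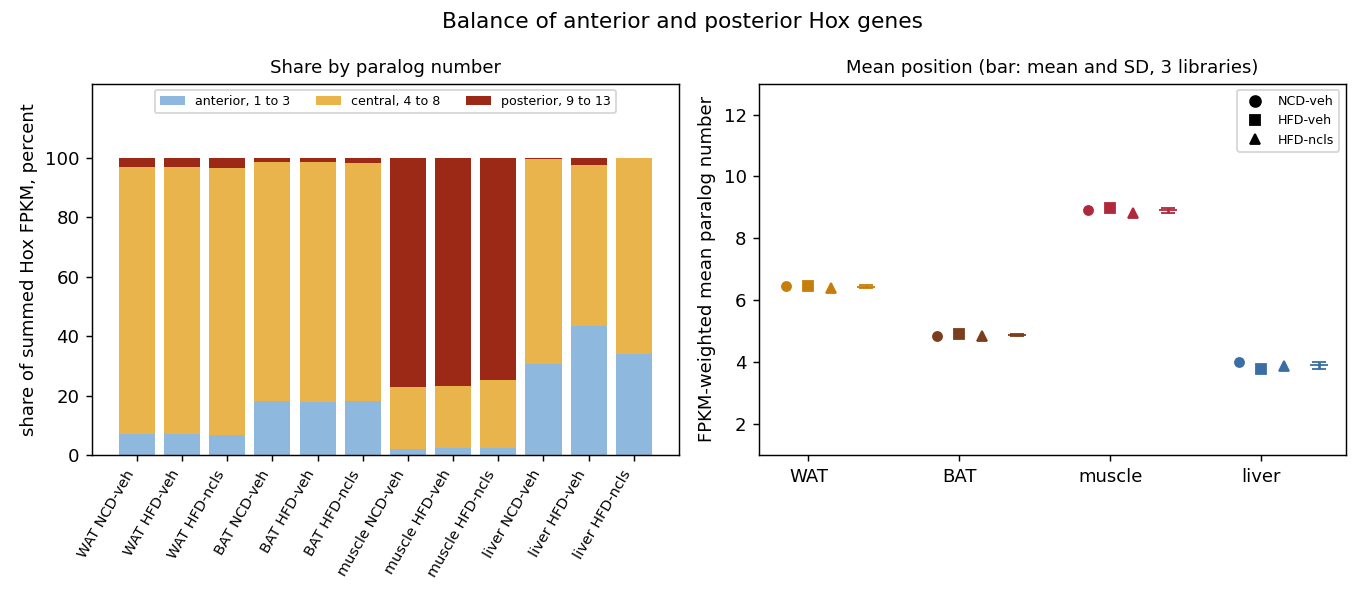
Left, stacked bars give the share of the summed Hox FPKM (percent) held by anterior (1 to 3), central (4 to 8) and posterior (9 to 13) paralogs in each of the 12 libraries. Right, the FPKM-weighted mean paralog number of each library, with the mean and SD of the 3 libraries beside the points. The muscle bars are mostly posterior, with 74.9% to 76.9%, and the fat bars mostly central.

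Central paralogs 4 to 8 held 89.9 ± 0.176% of the Hox FPKM in WAT and 80.3 ± 0.429% in BAT (SD, n = 3). BAT had more from anterior paralogs 1 to 3, at 18.1 ± 0.290% against 7.01 ± 0.236% in WAT. In muscle the posterior paralogs 9 to 13 held 76.1 ± 1.102%, beside 3.14 ± 0.345% in WAT and 1.58 ± 0.248% in BAT. The clusters were used unequally as well. Hoxc held 66.7 ± 1.74% of the sum in WAT and 76.5 ± 1.05% in muscle. In BAT, Hoxa held the largest share at 45.8 ± 1.75%, and Hoxb held 21.9 ± 1.69% there but 1.76 ± 0.133% in muscle.

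**Figure D2:**
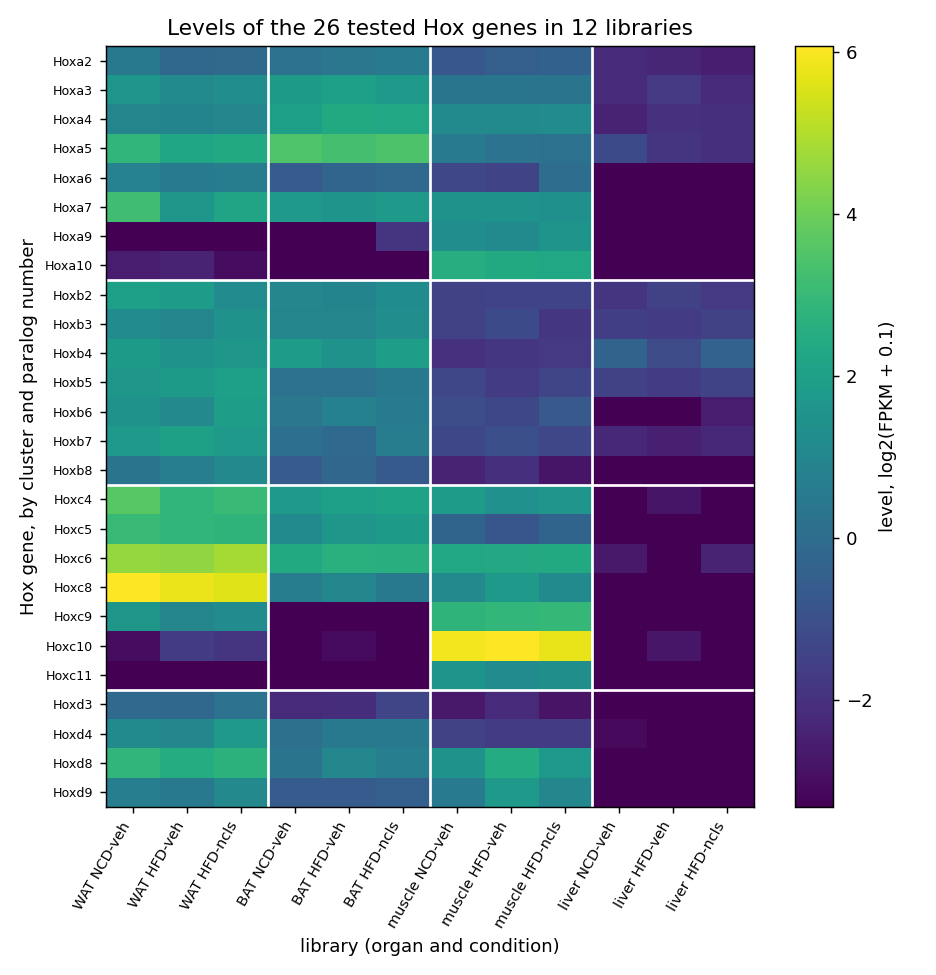
Colour gives the level of each of the 26 tested Hox genes, log2(FPKM + 0.1), in the 12 libraries. Rows run by cluster and paralog number, columns by organ and condition, and white lines part clusters and organs. The 3 columns of an organ look alike, Hoxc8 is brightest in WAT and Hoxc10 in muscle.

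In the Hoxc cluster on chromosome 15, WAT peaked at Hoxc8 and muscle at Hoxc10. Hoxc8, a central paralog, read 66.9, 55.1 and 49.3 FPKM in WAT, 1.49, 1.91 and 1.31 in BAT and 2.02, 3.32 and 2.17 in muscle, and was listed at 0 in liver. The lowest WAT library was far above the highest of any other organ. Hoxc10, a posterior paralog active in the hindlimb field, read 60.02, 67.2 and 53.7 in muscle, 0.0256, 0.211 and 0.174 in WAT and 0, 0.0214 and 0 in BAT, with 0.0477 in HFD-veh liver, the liver library with fibre markers, and 0 in the other two. Hoxc8 held 37.7 ± 3.26% of the Hox sum in WAT, and Hoxc10 held 56.8 ± 2.09% in muscle (SD, n = 3). Between them lies Hoxc9, a thoracic-level paralog, at 6.85, 7.28 and 7.59 in muscle and 3.01, 1.81 and 2.19 in WAT, and listed at 0 in every BAT and liver library. Hoxc11 read 2.84, 2.22 and 2.45 in muscle and was listed at 0 in all 9 libraries of the other organs. So the last Hoxc gene with a mean of at least 1 FPKM was Hoxc8 in BAT, Hoxc9 in WAT and Hoxc11 in muscle.

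The head end of the Hoxc cluster was on in both fat depots and in muscle. Hoxc4, which acts at cervical levels, read 12.4, 7.22 and 7.93 in WAT, 3.25, 3.83 and 4.29 in BAT and 3.45, 2.62 and 2.92 in muscle. Hoxc5 read 8.15, 7.26 and 6.90 in WAT, 2.12, 3.07 and 3.35 in BAT and 0.713, 0.471 and 0.719 in muscle. Hoxc6, known for marking the thoracic level of the trunk, read 23.8, 22.7 and 27.7 in WAT, 5.07, 6.15 and 5.84 in BAT and 4.74, 4.996 and 5.10 in muscle. In FPKM as deposited WAT stood above BAT and muscle for all 3 genes, while the BAT and muscle ranges overlapped for Hoxc4 and Hoxc6. After rescaling, as described below, Hoxc4 and Hoxc5 were not called between WAT and BAT, at 0.47 and 0.63 (log2).

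**Figure D3:**
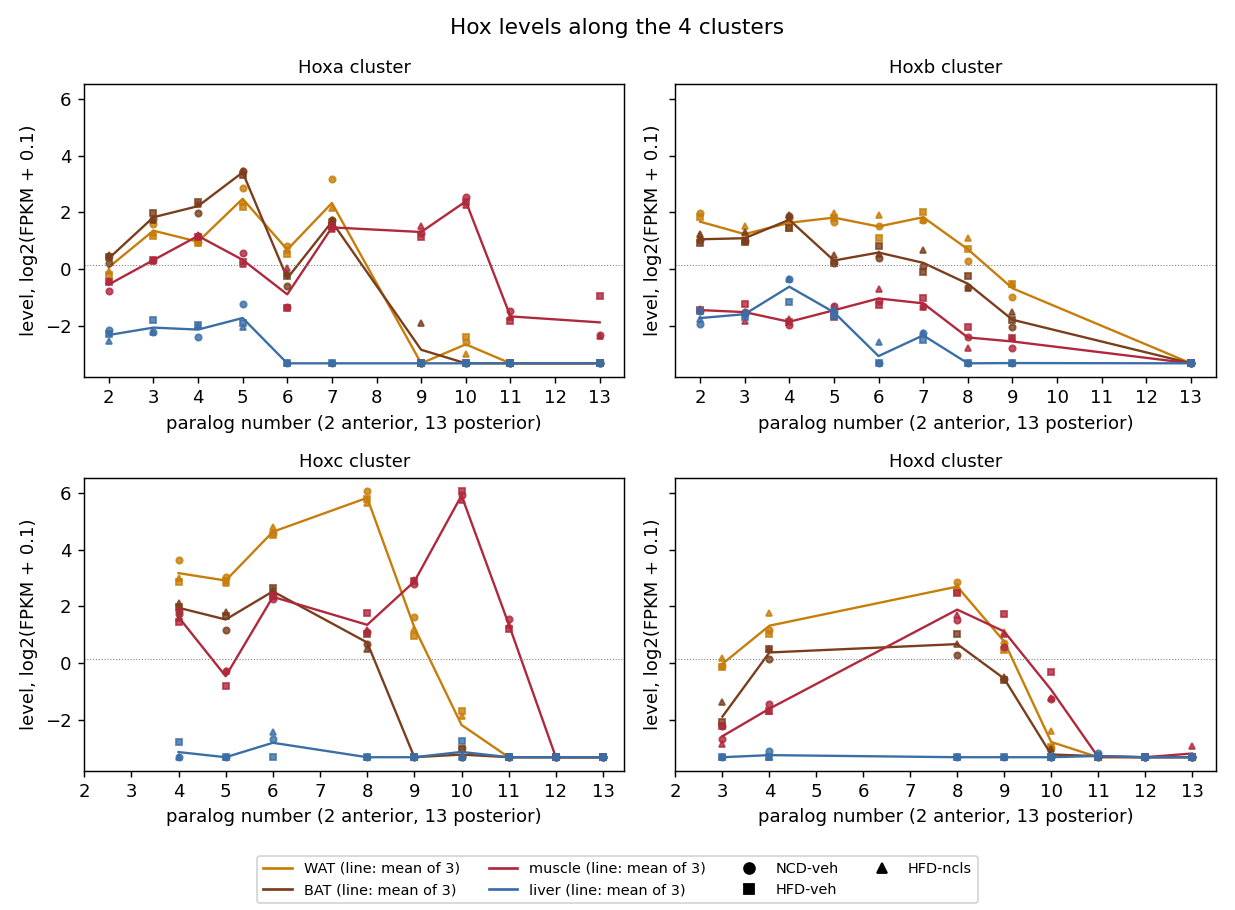
Each panel is 1 cluster, with the paralog number from 2 to 13 on the x axis and the level, log2(FPKM + 0.1), on the y axis. Lines join the means of the 3 libraries of an organ, symbols are the libraries of each condition, and the dotted line is 1 FPKM. In Hoxc the lines of BAT, WAT and muscle are last above 1 FPKM at paralog 8, 9 and 11.

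In the Hoxa cluster on chromosome 6, BAT led at paralogs 3 to 5 and muscle at 9 and 10. Hoxa5, which shapes cervical and upper thoracic structures, read 10.998, 9.78 and 10.9 FPKM in BAT, 7.197, 4.52 and 5.06 in WAT, 1.38, 1.09 and 1.02 in muscle and 0.327, 0.171 and 0.140 in liver. Hoxa4 read 3.84, 5.11 and 4.85 in BAT, 1.82, 1.80 and 1.94 in WAT and 2.14, 2.09 and 2.23 in muscle. Hoxa3, needed for pharyngeal organs, read 3.34, 3.80 and 3.25 in BAT, 2.94, 2.16 and 2.35 in WAT and 1.16, 1.15 and 1.13 in muscle. For these 3 genes each BAT library was above each library of the other organs. Hoxa2, the gene of the second pharyngeal arch, read 1.05, 1.23 and 1.33 in BAT, 1.28, 0.774 and 0.851 in WAT and 0.492, 0.624 and 0.657 in muscle, with overlapping fat ranges. Hoxa2 and Hoxa3 share 267 exon bases in the annotation, so their split is uncertain.

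Hoxa6 and Hoxa7 belong to the central group. Hoxa6 read 1.68, 1.36 and 1.499 in WAT, 0.566, 0.739 and 0.815 in BAT and 0.297, 0.283 and 0.935 in muscle. Hoxa7 read 8.95, 3.04 and 4.39 in WAT, 3.25, 2.79 and 3.23 in BAT and 2.72, 2.77 and 2.55 in muscle, and the HFD-veh WAT value lay within the BAT range. Both were listed at 0 in liver. Beyond them the Hoxa cluster was nearly silent in fat. Hoxa10, a lumbar and limb paralog, read 5.72, 5.09 and 4.68 in muscle and 0.0671, 0.0921 and 0.0253 in WAT and was listed at 0 in BAT and liver. Hoxa9 read 2.32, 2.08 and 2.78 in muscle and 0.170 in the HFD-ncls BAT library, and was under 0.001 in the other libraries of fat and liver.

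The Hoxb cluster on chromosome 11 was highest in the fat depots. Its 10 members summed to a mean of 20.3 FPKM as deposited in WAT, 11.8 in BAT, 1.86 in muscle and 1.38 in liver. Hoxb4, a cervical paralog that is also known for blood stem cells, read 3.37, 2.65 and 3.04 in WAT, 3.58, 2.63 and 3.62 in BAT, 0.156, 0.178 and 0.196 in muscle and 0.694, 0.345 and 0.679 in liver. Its WAT and BAT ranges overlapped, and each liver library was above each muscle library. Hoxb2, a hindbrain gene, read 3.87, 3.48 and 2.19 in WAT, 1.92, 1.77 and 2.26 in BAT and 0.258, 0.270 and 0.275 in muscle. Hoxb3 read 2.21, 1.87 and 2.76 in WAT, 1.90, 1.86 and 2.36 in BAT and 0.254, 0.327 and 0.183 in muscle. Both overlap an antisense transcript, Hoxb3os, and reads of the strands cannot be told apart if the counting ignored strand, which the sources used here do not state.

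From Hoxb5 onwards WAT exceeded BAT in FPKM as deposited. Hoxb5 read 3.08, 3.35 and 3.89 FPKM in WAT, 1.06, 1.06 and 1.3001 in BAT and 0.304, 0.207 and 0.294 in muscle. Hoxb6 read 2.74, 2.05 and 3.63 in WAT, 1.22, 1.67 and 1.34 in BAT and 0.362, 0.313 and 0.509 in muscle. These WAT and BAT ranges did not overlap. Hoxb7 read 3.25, 3.98 and 3.21 in WAT, 0.987, 0.825 and 1.48 in BAT and 0.311, 0.395 and 0.301 in muscle. Hoxb8 read 1.13, 1.53 and 2.05 in WAT, 0.546, 0.750 and 0.526 in BAT and 0.0904, 0.143 and 0.0437 in muscle. Hoxb7 and Hoxb8 share 1069 exon bases, so the 2 levels are not independent. In liver the tested Hoxb members ran from 0 to 0.694, the latter for Hoxb4, the highest of any member there.

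In the Hoxd cluster on chromosome 2, Hoxd8 had the highest mean in WAT, BAT and muscle, and it and Hoxd9 are known for patterning the trunk. Hoxd8 read 7.14, 5.57 and 6.53 FPKM in WAT, 1.12, 1.95 and 1.503 in BAT and 2.74, 5.40 and 3.12 in muscle. Hoxd9 read 1.52, 1.28 and 2.06 in WAT, 0.573, 0.560 and 0.619 in BAT and 1.38, 3.23 and 1.95 in muscle. BAT was lowest of the 3 organs for both. Hoxd4 read 2.12, 1.95 and 3.30 in WAT, 0.997, 1.31 and 1.31 in BAT and 0.265, 0.208 and 0.212 in muscle. Hoxd3 read 0.828, 0.801 and 1.03 in WAT, 0.117, 0.136 and 0.285 in BAT and 0.0545, 0.117 and 0.0396 in muscle. In FPKM as deposited these 2 genes ranked in the order WAT, BAT and muscle, except that the lowest BAT and the highest muscle value of Hoxd3 were both 0.117. They share 1725 exon bases in the annotation.

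The other 13 members stayed under 1 FPKM in every library and were not tested. Hoxb9 read 0.404, 0.599 and 0.597 in WAT, 0.140, 0.191 and 0.250 in BAT and under 0.1 in muscle and liver. Hoxb9 was therefore highest in fat. Other posterior members were highest in muscle: Hoxd10 read 0.313, 0.702 and 0.324, Hoxa11 0.259, 0.179 and 0.211 and Hoxa13, a gene of the distal limb, 0.0999, 0.412 and 0.0967. Hoxa11 overlaps the antisense transcript Hoxa11as, which read 0.344, 0.350 and 0.253 in muscle. Hoxd11 and Hoxd13 reached at most 0.00978 and 0.0312 FPKM, within about 2 fragments of a 2000-base transcript. Hoxb1, Hoxb13, Hoxc12, Hoxc13, Hoxd1 and Hoxd12 were listed at 0 in all 12 libraries.

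**Figure D4:**
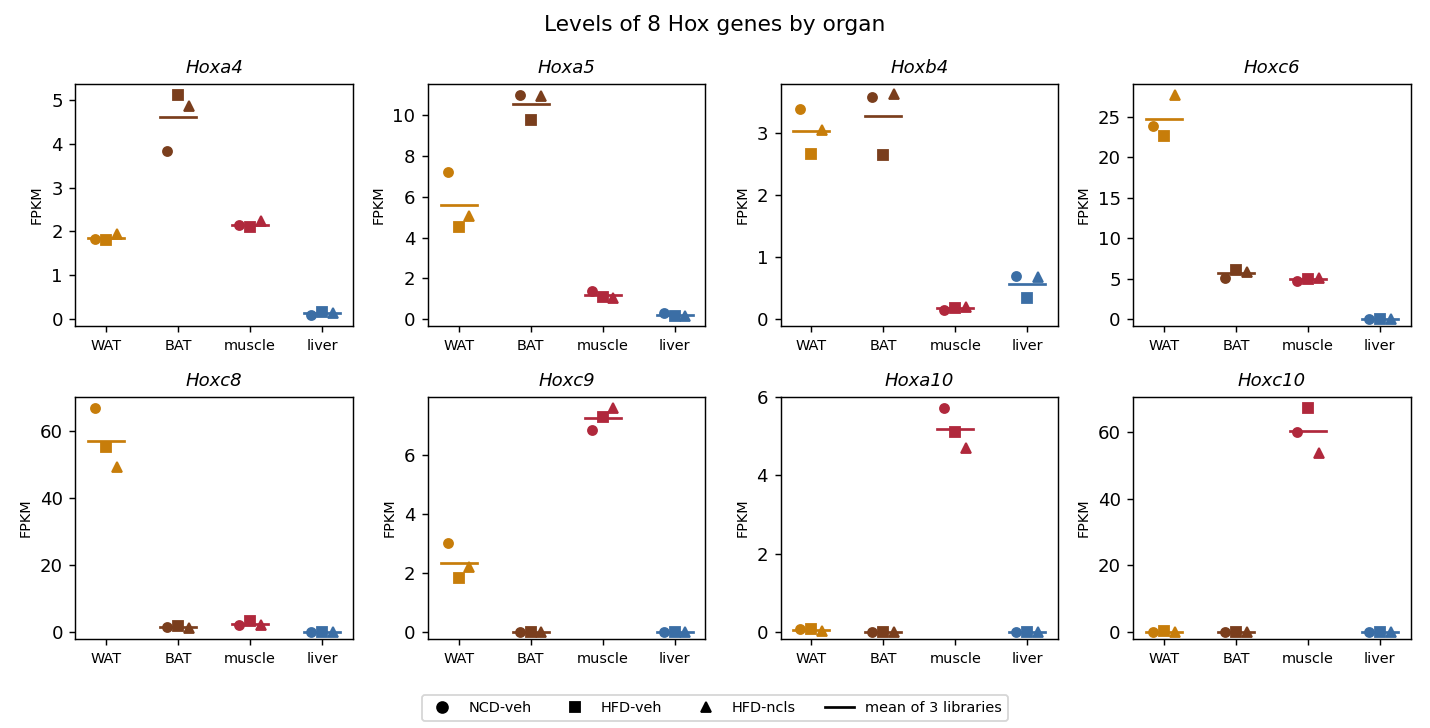
FPKM of 8 Hox genes by organ, with a symbol for each condition and a line at the mean of 3 libraries. The y axes differ between panels. Hoxa4 and Hoxa5 are highest in BAT, Hoxc6 and Hoxc8 in WAT, and Hoxc9, Hoxa10 and Hoxc10 in muscle, and the 3 libraries of an organ lie close together.

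The organ differences were tested with limma on log2(FPKM + 0.1) with organ and condition as terms, across 13648 genes that reached 1 FPKM in some library. The 3 conditions of an organ served as its libraries, and a call needed over 2-fold and an adjusted p under 0.05 (Benjamini-Hochberg). Of the 39 members 26 passed the filter: 5 of 8 anterior, 15 of 15 central and 6 of 16 posterior. A member could pass through the organ where it was high, so the counts of calls below describe the members and are not a test of them. With FPKM as deposited, the median of all genes was higher in WAT by 0.97 on the log2 scale than in BAT, by 1.20 than in muscle and by 1.00 than in liver. Rescaling each library by its median ratio took 0.71, 0.82 and 0.75 off these differences, so the main WAT counts of calls are given on both scales. The ranges that follow were compared on FPKM as deposited only. The ranges of the 3 libraries did not overlap for 19 of 26 members between WAT and BAT, 25 between WAT and muscle and 23 between BAT and muscle, beside 79.9%, 84.7% and 75.5% of all genes. Against liver they did not overlap for 23 members in WAT, 21 in BAT and 24 in muscle, beside 82.7%, 72.0% and 78.0%.

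Between the fat depots, Hoxc6, Hoxc8, Hoxc9, Hoxd3 and Hoxd8 were higher in WAT and Hoxa4 was higher in BAT on both scales. Of 26 members 14 were called, beside 54.8% of all genes, a share near the background. They were 13 higher in WAT and 1 lower, beside 47.8% and 6.93%. After rescaling 5 were called higher and 3 lower, beside 25.7% and 14.1% of all genes. Hoxc8 had the largest difference of any member, at 5.10 ± 0.19 (log2, SE; adjusted p = 1.6e-07, limma), and 4.35 after rescaling. Hoxc6 differed by 2.10 ± 0.19 (adjusted p = 7.4e-06, limma) and Hoxd8 by 2.03 ± 0.25 (adjusted p = 5.3e-05). Hoxc9 was listed at 0 in BAT, so no fold is given for it. Hoxb5, Hoxb7, Hoxb8, Hoxa6, Hoxc4, Hoxc5, Hoxc10 and Hoxd9 were called higher in WAT as deposited only. Of these, Hoxc10 was at 0.211 FPKM or less in both depots. Leaving out 1 library ended 4 of these calls at the fold limit or the adjusted p. Without NCD-veh WAT the difference was 0.82 for Hoxa6 and 0.96 for Hoxc4, without HFD-ncls WAT 0.92 for Hoxb8, and without HFD-veh WAT 0.92 for Hoxc10, all on the log2 scale. Hoxa6, Hoxb8 and Hoxd3 reached 1 FPKM in WAT only and so entered the fit through WAT.

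Hoxa4 was the one member called lower in WAT than in BAT as deposited, at -1.26 ± 0.16 (log2, SE; adjusted p = 5.7e-05, limma). Hoxa5, at -0.93 ± 0.17 (adjusted p = 6.8e-04), missed the fold limit and was called after rescaling at -1.68, as was Hoxa3 at -1.20. The sign of the difference turned with rescaling for Hoxa7, Hoxb2 and Hoxb3, none of which was called on either scale. The ratio of Hoxc8 to Hoxa5 needs no scaling. It was 9.30, 12.2 and 9.75 in WAT and 0.136, 0.195 and 0.120 in BAT.

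Muscle differed from both depots by its posterior genes and by its low Hoxb genes. Against WAT 21 members were called, beside 63.4% of all genes, with 16 higher in WAT and 5 lower, beside 54.4% and 9.02%. After rescaling the split was 13 and 7, beside 36.9% and 17.5%. The 5 lower in WAT were Hoxa9, Hoxa10, Hoxc9, Hoxc10 and Hoxc11, all posterior, and rescaling added Hoxa4 and Hoxd9. Hoxa9, Hoxa10, Hoxc10 and Hoxc11 reached 1 FPKM in muscle only and so entered the fit through muscle. Their calls here and against BAT describe them and are not a test of them. Hoxc10 differed by -8.09 ± 0.27 (WAT minus muscle, log2, SE; adjusted p = 1.4e-08, limma) where the WAT values of a few fragments set the size, and Hoxc9 by -1.62 ± 0.20 (adjusted p = 4.0e-05). In the other direction Hoxc8 was higher in WAT by 4.48 ± 0.19 (adjusted p = 4.3e-08) and Hoxb4 by 3.49 ± 0.20. All 7 tested Hoxb members were called higher in WAT than in muscle on both scales. Hoxa2 and Hoxd8, called on neither scale, changed sign with rescaling.

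Against BAT 19 members were called, beside 44.2% of all genes, with 12 higher in BAT and 7 higher in muscle, beside 28.6% and 15.6%. Here the scales differed little, and rescaling gave 11 and 7, beside 26.7% and 17.2% of all genes. All 7 tested Hoxb members, Hoxa3, Hoxa4, Hoxa5, Hoxc5 and Hoxd4 were higher in BAT. The largest of these was Hoxb4, by 3.60 ± 0.20 (log2, SE; adjusted p = 4.3e-07, limma), and Hoxa5 followed with 3.08 ± 0.17 (adjusted p = 4.2e-07). Hoxa4 lost its call on rescaling, at 0.95, and without HFD-veh BAT or HFD-veh muscle, at 0.98 in each case. Muscle was higher for Hoxa9, Hoxa10, Hoxc9, Hoxc10, Hoxc11, Hoxd8 and Hoxd9, of which Hoxa10, Hoxc9 and Hoxc11 were listed at 0 in BAT. Hoxd8 differed by -1.22 ± 0.25 (adjusted p = 0.00181) and by -0.96 without HFD-veh muscle, which ended its call. Hoxc8 missed the fold limit at -0.62 ± 0.19 (adjusted p = 0.0157). Hoxc4 and Hoxc6 gave 0.33 ± 0.25 and 0.19 ± 0.19, neither beyond the spread of the libraries.

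Hoxc10, the leading gene of the quadriceps, was at or near 0 in the BAT libraries with muscle fibre RNA. In NCD-veh BAT the 5 fibre markers were at 1.504% to 5.32% of their level in NCD-veh muscle, with a median of 1.97%. At that median share, the quadriceps level of Hoxc10 would amount to 1.18 FPKM, while Hoxc10 was listed at 0 in that library, as were Hoxa10, Hoxc9 and Hoxc11. Hoxd9, also posterior and higher in muscle, read 0.573, 0.560 and 0.619 in BAT. In HFD-veh BAT the median share was 0.802%, which would amount to 0.539, and Hoxc10 read 0.0214. Lbx1, a factor of migrating limb muscle precursors, read 0.265, 0 and 0 in BAT and 31.7, 31.5 and 28.7 in muscle. At the median share its muscle level would amount to 0.6255, 0.252 and 0.0323 FPKM, so Lbx1, not a Hox gene, also read below that amount. Tbx15 read 1.63, 0.882 and 0.447 in BAT and 76.9, 98.2 and 76.0 in muscle. The median fibre share of its muscle level would amount to 1.52, 0.788 and 0.0853 FPKM in the 3 BAT libraries. The source of the fibre RNA in BAT was not tested.

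Liver was low throughout, with no member at 1 FPKM and 12 to 14 members above 0 per library. Against liver, 22 members were called higher in WAT and 21 in BAT, with none lower, beside 61.3% and 42.5% of all genes called in either direction and 49.7% and 24.3% called higher. The shares of all genes called lower were 11.6% and 18.3%. Between muscle and liver 21 were called, beside 51.4% of all genes, with 20 higher in muscle and 1 lower, beside 23.1% and 28.4%. The counts after rescaling were 22, 21 and 21 higher, beside 32.1%, 24.2% and 24.8% of all genes. In muscle 1 was again lower, beside 27.4%. The lower one was Hoxb4, at -1.24 ± 0.20 (muscle minus liver, log2, SE; adjusted p = 3.1e-04, limma). Hoxb2, Hoxb3 and Hoxb5 were near their liver level in muscle and were not called, at 0.28 ± 0.24, 0.07 ± 0.22 and 0.07 ± 0.17. The members at a mean of at least 0.1 FPKM in liver were Hoxa2 to Hoxa5 and Hoxb2 to Hoxb5, and anterior genes held 30.8, 43.6 and 33.9% of the Hox sum there.

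No difference by diet or treatment shared over the organs was called among the members. Averaged over the organs, the count was 0 of 26 for HFD-veh against NCD-veh or for HFD-ncls against HFD-veh by limma, beside 0% of all genes in both. At an unadjusted p under 0.05 there were 2 members for the diet and 0 for the treatment. The 2 were Hoxa5, at -0.45 ± 0.15 (log2, SE; adjusted p = 0.598), and Hoxc10, at 0.58 ± 0.23 (adjusted p = 0.658). Outside muscle the Hoxc10 values behind this were at most 0.211 FPKM. With 1 library per organ and condition, a difference inside 1 organ has no test and a difference that opposes itself between organs would cancel here.

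All 12 libraries had their nearest Hox profile in their own organ, by Euclidean distance over the 39 members on the log2(FPKM + 0.1) scale. The widest gap within an organ was 3.07, between HFD-veh and HFD-ncls muscle, and the narrowest gap between organs was 8.51, between HFD-veh WAT and HFD-veh BAT. Muscle and liver were at least 16.2 from every other organ. Pearson's r over the 39 members was 0.976 or more within WAT, BAT and muscle, 0.910 to 0.948 within liver, 0.864 to 0.891 between WAT and BAT, and 0.249 to 0.299 between BAT and muscle. These correlations are across genes, which are not independent, and 6 of the points are at 0 everywhere. For the 26 tested members the organ accounted for a median of 98.6% of the variance of log2(FPKM + 0.1) and the condition for 0.278%, beside 95.8% and 0.839% for all genes tested. Hoxa6 had the largest condition share, at 1.71%. A member that passed the filter through the organ where it was high, and was near 0 elsewhere, has a high organ share for that reason. The shares and distances therefore describe the members and are not a test of them. No nearest profile was taken over all genes.

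Inside WAT, most members read lower on the high-fat diet. Of the 21 members at 1 FPKM or more in either library, 18 were lower in HFD-veh than in NCD-veh and the median log2 ratio was -0.28, beside 0.03 for all genes. Of them 1 passed 2-fold, beside 9.07% of all genes. It was Hoxa7, at 3.04 against 8.95 FPKM, beside 3.87% of all genes more than 2-fold lower. Hoxc4 was next at 7.22 against 12.4, while Hoxb8, Hoxb7 and Hoxb5 read higher. The cell content of the 3 WAT libraries differed too. Mesothelial markers summed to 207, 80.2 and 87.3 FPKM, the 5 fibroblast and preadipocyte markers to 1366, 1038 and 1169 and the 5 macrophage markers to 182, 347 and 368, and within the fibroblast list Pdgfra and Dcn were highest in NCD-veh while the other 3 were lowest there. Their part in the Hox ratios was not tested. From HFD-veh to HFD-ncls 17 of 21 members read higher, with a median of 0.21, beside 0.04 for all genes. None passed 2-fold, beside 1.66% of all genes. The largest treatment ratio was that of Hoxb6, from 2.05 to 3.63. The diet and treatment ratios share the same HFD-veh library, so a shift of that library alone would move them in opposite directions. The shares of all genes that read lower or higher were not counted.

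Inside BAT no member passed 2-fold for the diet, among 16, or for the treatment, among 17, beside 4.29% and 1.96% of all genes. The largest diet ratio was that of Hoxd8, from 1.12 to 1.95 FPKM, and the largest treatment ratio that of Hoxb7, from 0.825 to 1.48. Hoxa5 stayed within 9.78 to 10.998, while the fibre markers in the same libraries summed to 1391, 559 and 78.1.

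Inside muscle 1 member of 14 passed 2-fold for the diet, beside 4.05% of all genes. It was Hoxd9, from 1.38 to 3.23 FPKM, beside 3.08% of all genes more than 2-fold higher. Hoxd8 went from 2.74 to 5.40 and Hoxc8 from 2.02 to 3.32, and Hoxd10, below the filter, from 0.313 to 0.702. All 4 read lower in HFD-ncls, where no member of 14 passed 2-fold from HFD-veh, beside 3.74% of all genes. The HFD-veh muscle library had the highest hepatocyte marker sum of the 3, and Hoxc8, Hoxd8, Hoxd9 and Hoxd10 were listed at 0 in every liver library. It also had the highest sum of the 5 adipocyte markers, at 28.7, 65.6 and 36.9 FPKM over the muscle libraries. Hoxc8 and Hoxd8 were high in WAT. Hoxd9 read 1.52, 1.28 and 2.06 in WAT and Hoxd10 read 0.0266, 0.0274 and 0.0902, below their values in HFD-veh muscle. The part of liver or fat RNA in the ratios was not tested. Hoxc10 stayed between 53.7 and 67.2 FPKM. In liver no member reached 1 FPKM, so no ratio was taken.

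**Figure D5:**
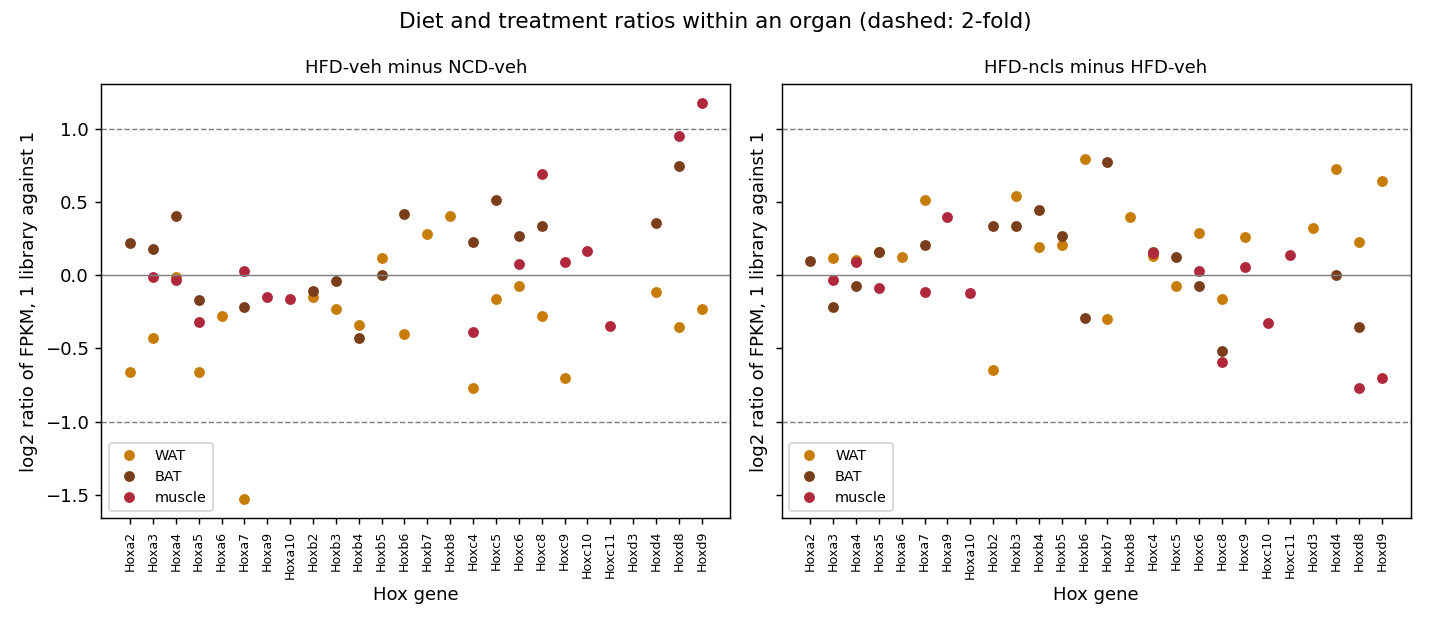
Log2 ratio of FPKM between 2 libraries of the same organ for each Hox gene at 1 FPKM or more in either, for the diet (left) and for narciclasine on the high-fat diet (right). Dashed lines mark 2-fold, and each point rests on 1 library against 1. Hoxa7 in WAT and Hoxd9 in muscle lie outside the lines on the left, and no point does on the right.

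Hox proteins bind DNA together with cofactors of the Pbx, Meis and Pknox families, and of the 9 cofactor genes 8 were tested. Against BAT 7 were called higher in WAT and 0 lower, beside 47.8% and 6.93% of all genes. After rescaling 4 were called higher, Meis1, Meis3 and Pknox2 among them, beside 25.7% of all genes. Meis1 read 5.73, 2.53 and 3.37 FPKM in WAT, 0.647, 0.797 and 1.00 in BAT and 0.837, 0.659 and 0.567 in muscle. Pbx2 read 12.7, 9.35 and 10.0 in WAT, 8.79, 8.23 and 8.10 in BAT and 4.59, 4.44 and 5.59 in muscle. Muscle stood apart by Pknox2, at 8.90, 13.9 and 8.60 against 0.258, 0.170 and 0.0227 in BAT and 0.651, 0.425 and 0.751 in WAT (BAT minus muscle, adjusted p = 1.1e-06, limma), and had less Meis2 than BAT. Pknox1 was present in all 4 organs and so was Pbx2, which in liver, the organ with the least Hox RNA, read 6.12, 5.07 and 6.69.

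Other factors of regional identity were compared in the same way. Of a list of 20 genes 14 were tested, and 7 were called higher in WAT than in BAT and 3 lower, beside 47.8% and 6.93% of all genes. After rescaling 4 were higher and 3 lower, beside 25.7% and 14.1%, so the share called higher was near the background on both scales. Higher on both scales were Wt1, Tcf21, Gata6 and Hand2, factors of visceral mesoderm, with Tcf21 at 6.28, 2.37 and 3.33 in WAT and listed at 0 in BAT and muscle. Wt1 is also a mesothelial marker, and those markers were almost absent from BAT. Lower on both were Tbx15, Tbx5 and Zic1. Over the BAT libraries Tbx15 ranked as the fibre markers did but fell less, from 1.63 to 0.447, while their sum fell from 1391 to 78.1. In HFD-ncls BAT the median fibre share would amount to 0.0853 FPKM of Tbx15. The part of fibre RNA was not tested. Tbx5, the forelimb and heart factor, read 0.797, 1.47 and 1.23 in BAT and 0.0234, 0.0723 and 0.0132 in WAT, and Zic1, a dorsal somite and neural factor, read 0.691, 0.737 and 1.24 in BAT and 0.00199, 0.0143 and 0 in WAT. Between BAT and muscle 5 were called higher in BAT, or 4 after rescaling, and 3 in muscle, beside 28.6% and 15.6% of all genes as deposited. The 3 were Tbx15, Lbx1 and En1. The hindlimb factors Tbx4 and Pitx1 did not pass the filter and read at most 0.368 and 0.111 in muscle.

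Genes that set or hold Hox states were broadly present. All 16 Polycomb genes, whose complexes keep Hox clusters silent, and all 11 trithorax genes, which keep them active, passed the filter. In WAT against BAT 6 Polycomb genes were called higher and 0 lower, beside 47.8% and 6.93% of all genes. After rescaling 0 were higher and 3 lower, beside 25.7% and 14.1%, so no direction is given for them. In BAT against muscle 6 were higher and 1 lower, or 6 and 2 after rescaling, beside 28.6% and 15.6% of all genes as deposited, with Pcgf2 at 5.20, 6.28 and 6.33 in BAT and 0.491, 0.476 and 0.480 in muscle (adjusted p = 3.6e-06, limma). Of the 11 trithorax genes 1 was called higher in WAT than in BAT, beside 47.8% of all genes. After rescaling 0 were higher and 1 lower, beside 25.7% and 14.1%. Between BAT and muscle 1 was called, Men1, higher in BAT on both scales. The shares of all genes higher in BAT were 28.6% as deposited and 26.7% after rescaling. Among 6 regulators of the embryonic clusters Cdx1 and Cdx4 were listed at 0 in all libraries and Cdx2 in all but one. Of the 3 tested, the retinoic acid receptor gene Rarg was the one called between BAT and muscle, beside 44.2% of all genes. It read 19.4, 13.5 and 14.7 in WAT, 8.17, 9.93 and 9.16 in BAT and 2.51, 2.76 and 4.28 in muscle. No gene of these lists was called for the diet or the treatment averaged over organs. Of the other transcripts of the clusters none reached 1 FPKM, and Hotair, the long noncoding RNA between Hoxc11 and Hoxc12, was above 0 in muscle only, at 0.237, 0.121 and 0.123.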

How the data were processed

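Tissues were snap frozen, total RNA was extracted with TRIzol and Illumina libraries were made, 1 for each organ and condition. The authors aligned reads to mouse build mm9 with TopHat and estimated levels with Cufflinks, and the deposited values are FPKM per gene symbol. Library totals are not in the table, so depth was estimated from the FPKM steps of lowly expressed genes with 1 annotated transcript. Of 22276 symbols, 86 without a value in at least 1 library were left out of the fits. Levels were compared as log2(FPKM + 0.1) for genes with at least 1 FPKM in at least 1 library with limma 3.58.1 in R 4.3.3 (trend, organ plus condition, 6 residual degrees of freedom) and Benjamini-Hochberg adjustment over 13648 genes. A fold change on this scale understates changes of low genes. On simulated data for WAT minus BAT, 100 of 100 genes raised and 100 of 100 lowered 4-fold were recovered among 11069 genes. The changed genes were drawn from those with higher mean levels, and every gene had the same spread. Most Hox members lie below those levels, so the simulation does not show how well changes in them are recovered. The 3 conditions of an organ stood in for replicates, so p-values measure the spread between these libraries, and nothing states separate animals. The members and gene lists were chosen with earlier results of these data known. Members at 1 FPKM or more are named with each value and the others by range and count, apart from a few items that are not reported here, and from other lists the 4 most abundant genes or those called over 4-fold between WAT and BAT or BAT and muscle, plus a few others chosen after their values were seen. Alternatives were the pseudocount, filter, scaling, model terms, leaving out each library, and the weights of the mean paralog number. Marker lists were for adipocyte, brown adipocyte, hepatocyte, muscle fibre, fibroblast, endothelial, macrophage, lymphocyte, mesothelial, epididymal and Schwann cells. Gene positions and sequences came from GENCODE M1 on mm9 and miRNAs from RefSeq on GRCm38.p6, and figures were drawn with matplotlib 3.10.9.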

Additional observations from a re-analysis of the deposited data

How the results depend on the processing

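The number of members called was within 1.5 times the reported one under most settings, with these exceptions. With a pseudocount of 1 FPKM, 8 members were called between WAT and BAT, 11 between BAT and muscle and 12 between muscle and liver. Rescaling left 8 between WAT and BAT, of which 6 were among the 14 called as deposited. Leaving out 1 library gave 11 to 15 members for WAT minus BAT, 20 to 23 for WAT minus muscle, 17 to 21 for BAT minus muscle, 21 to 23 for WAT minus liver, 20 to 21 for BAT minus liver, 20 to 22 for muscle minus liver, and 0 for the diet and the treatment. Of the 118 calls of single members, followed over all settings, none changed direction, 35 were lost with a pseudocount of 1 FPKM and 12 on rescaling. Beside the calls already named as lost without 1 library, Hoxa6 between WAT and BAT also ended without NCD-veh BAT (0.93) or HFD-ncls BAT (0.95), Hoxc10 without HFD-ncls WAT (0.82) or HFD-veh BAT (0.97), Hoxa3 between WAT and muscle without NCD-veh WAT (0.89), and Hoxb7 between muscle and liver without HFD-veh muscle (0.98). The weighted mean paralog number of WAT was 5.67 with log2(FPKM + 1) as weights, and 4.94 in Hoxa, 4.97 in Hoxb, 6.95 in Hoxc and 6.91 in Hoxd alone. That of BAT was 4.93 both with log weights and over tested members, and 4.53, 4.40, 5.48 and 6.54 by cluster. Muscle gave 7.59 with log weights and 7.30, 5.07, 9.37 and 8.26 by cluster. Liver gave 3.42 in Hoxa, 3.95 in Hoxb, which held 64.4% of the Hox FPKM there, 6.35 in Hoxc and 6.60 in Hoxd, the last from 1 library. The nearest profile was of the same organ for 12 of 12 libraries with 1 minus Pearson's r and with a pseudocount of 1 FPKM. No paired analysis was possible because the labels carry no replicate numbers and each organ and condition has 1 library. Depth limits members under about 0.08 FPKM, which rest on 3 fragments or fewer.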

Other observations

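Markers outside the comparisons also differed between organs. The 5 endothelial markers summed to 139, 221 and 224 FPKM in WAT and 134, 169 and 159 in BAT, beside 34.2, 37.5 and 36.9 in muscle and 11.6, 11.1 and 10.9 in liver. The 5 Schwann cell markers summed to 23.5, 11.6 and 10.6 in BAT and 9.92, 10.2 and 10.4 in WAT. The 6 lymphocyte markers summed to 9.69, 2.68 and 7.22 in WAT and to under 2 in the other organs.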
